A study of Caenorhabditis elegans with 63 samples.

Results

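mir-228, mir-790 and mir-791 are 3 miRNA genes of the nematode Caenorhabditis elegans whose products are grouped as relatives by their seed, the stretch near the 5′ end of a miRNA that pairs with target mRNAs. They were followed here through small RNA libraries of worms with mutations in drsh-1, the gene for Drosha. All rows named after these hairpins were taken, which gave 6 arms of the 276 arms in each of 2 count tables, and 3 hairpins of the 139 found in both tables together. The trio was chosen by its response to drsh-1(cdb328), with the low level of miR-790-5p in that mutant already known. Every comparison of a genotype that contains cdb328 with its control is therefore given below as a description, with no p-value. How many arms passed the threshold there is stated only beside the share of all arms that did, and nothing is read from it. The relationship by seed is taken as background and was not checked, since no mature sequences were used here.

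A miRNA starts as a hairpin in a longer primary transcript. Drosha, the RNase III of the Microprocessor, cuts the hairpin out in the nucleus, Dicer then removes the loop, and usually 1 of the 2 arms is kept by an Argonaute protein while the other, marked with a star in the tables, is degraded. Seed relatives can share targets although separate hairpins make them. In worms mir-228 has been described in glia and in ageing, and mir-791 in the neurons that sense CO2. For mir-790 no role is stated here.

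The series holds 63 libraries of small RNA from whole worms grown at 20 °C. With the NEBNext kit, wild type, drsh-1(cdb328) I and drsh-1(cdb330) I were each sequenced in the last larval stage (L4) and as Adults (n = 3 per group). A further pair of Adult groups (n = 2 each) carried drsh-1::gfp together with tdp-1::mScarlet, and the second of them also carried drsh-1(null). They are called the tagged and the tagged drsh-1(null) worms. In the label of the second group drsh-1(null) follows a slash after the tagged alleles, so its worms are not taken to lack drsh-1. With degenerate adaptors that lessen ligation bias (bias-minimized below), wild-type, cdb328 and cdb330 Adults were sequenced (n = 3 each), along with a set called the mir-80 series. That set combines wild-type mir-80 or the mir-80 alleles cdb493, cdb494, cdb495, cdb496 and cdb530 with intact or mutant drsh-1. The mutant drsh-1 of the mir-80 series is drsh-1(cdb263 cdb328), except beside mir-80(cdb530), where it is drsh-1(cdb328) I. Of the 6 groups with intact drsh-1, cdb494 and cdb495 have n = 2 and the others n = 3; of the 6 with mutant drsh-1, the combinations with cdb493 and cdb530 have n = 2. The labels give no stage for the mir-80 series. They do not say what sequence any allele changes, whether replicates are separate cultures, or whether the Adults of both protocols came from the same RNA, so the errors below describe the spread between these libraries. The bias-minimized Adult libraries bear the names of the NEBNext Adult libraries with a suffix added. Both protocols may therefore have used the same worms, and the bias-minimized Adults are not taken as an independent repeat. In whole worms, fewer cells that make a miRNA and fewer copies per cell cannot be told apart.

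NEBNext libraries held 1891780 to 5565918 miRNA reads, bias-minimized Adults 578859 to 2585561, and libraries of the mir-80 series 155736 to 2355231. Levels are given as CPM, reads scaled to 1000000 miRNA reads in a library, with the 10 spike-ins left out. Fold changes and their standard errors (SE) are from edgeR on a log2 scale, and an arm is called changed when its p, adjusted over every arm tested, is below 0.05. All 6 arms passed the filter on low counts in the NEBNext fits. In the bias-minimized Adults only miR-228-5p and miR-790-5p passed it, and in the mir-80 series these and miR-791-3p and miR-228-3p*.

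In the WBcel235 annotation mir-228 and mir-790 are close neighbours. The mir-228 hairpin lies at IV:5562025-5562122 and the mir-790 hairpin at IV:5566422-5566491, both on the plus strand and both outside protein-coding genes, with 4299 bases between them, and each is the other's nearest miRNA gene. The nearest protein-coding genes are ari-2, 3204 bases from mir-228, and T12E12.6 on the minus strand, 528 bases from mir-790. The mir-791 hairpin stands alone on another chromosome, at X:5809349-5809433 on the plus strand, 5359 bases from mir-230 and 3426 bases from F13D11.3. No source used here gives the build the authors counted on. A piRNA gene, 21ur-1430 (IV:5566428-5566448, plus strand), shares 21 bases with the 22-base 5p arm of mir-790. How the authors' counting treated reads of that piRNA is not given either, so the level of miR-790-5p is uncertain to that extent.

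The relatives differed in abundance by orders of magnitude. In wild-type L4 worms miR-228-5p stood at 12401 ± 222 CPM (SD, n = 3), which placed it at rank 27 of the 276 arms. miR-790-5p stood at 236 ± 28.4 CPM and rank 85. miR-791-3p stood at 3.40 ± 1.05 CPM and rank 211. The order of these main arms was the same in wild type of every set: ranks 29, 113 and 222 in NEBNext Adults, 55, 171 and 219 in bias-minimized Adults, and 43, 120 and 177 in the mir-80 set. With the bias-minimized adaptors the gap between miR-790-5p and miR-791-3p was narrower. Their pooled CPM was 15.9 and 1.85 in wild-type Adults, and 110 and 17.6 in wild type of the mir-80 set. The main arms of the neighbours mir-228 and mir-790 thus differed in level by far more than the spread of either.

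**Figure D1:**
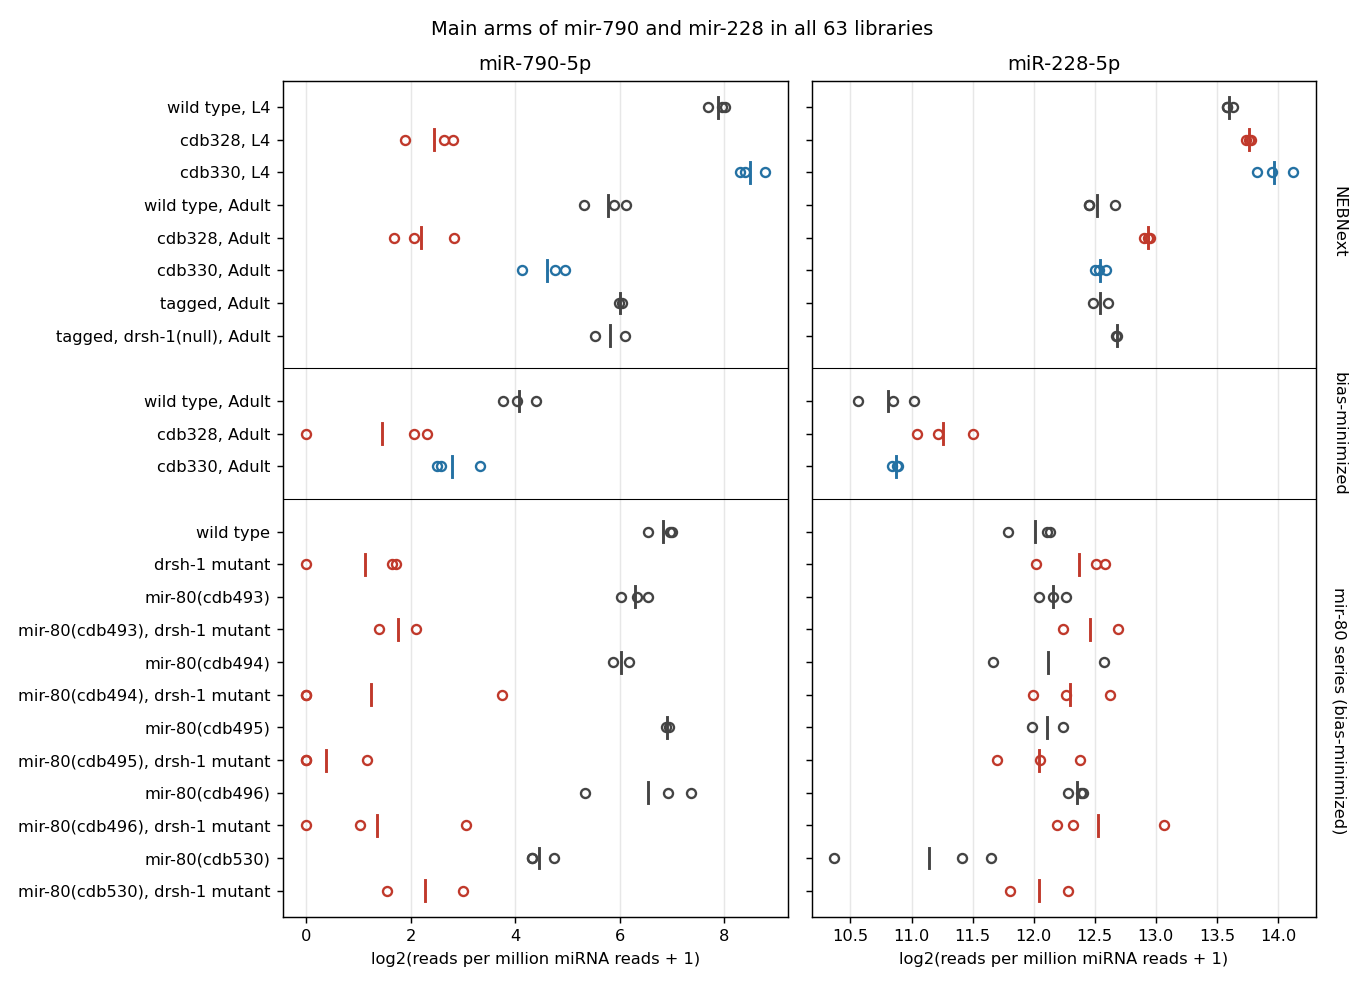
Level of miR-790-5p (left) and miR-228-5p (right) in every library, as log2 of CPM plus a pseudocount of 1; each circle is 1 library, the vertical bar is the mean of the log2 values of a group, red marks genotypes with cdb328, blue cdb330 and grey all others. In genotypes with cdb328 miR-790-5p lies left of every library of its own control, and miR-228-5p spans 2117 to 14072 CPM over the genotypes with cdb328.

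In cdb328 worms miR-790-5p lay far below wild type while its neighbour miR-228-5p lay slightly above. In L4 worms miR-790-5p had 623, 703 and 447 reads in the wild-type libraries (257, 248 and 204 CPM) and 11, 6 and 15 reads in cdb328 (5.25, 2.74 and 5.97 CPM). The ranges are far apart, and no cdb328 library comes near the lowest wild-type library. The log2 fold change was -5.45 ± 0.28 (SE), a 43.7-fold lower level. In Adults the wild-type libraries had 156, 101 and 146 reads (58.1, 38.9 and 68.5 CPM) and cdb328 had 6, 12 and 5 (3.17, 6.13 and 2.23 CPM). These ranges do not overlap either, and the log2 fold change was -3.95 ± 0.32, a 15.4-fold lower level. In bias-minimized Adults the reads were 25, 14 and 21 in wild type and 4, 7 and 0 in cdb328, with a log2 fold change of -2.39 ± 0.60.

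miR-228-5p, the abundant neighbour, moved little and the other way. In L4 worms it stood at 12656, 12252 and 12296 CPM in wild type and at 13624, 13897 and 14072 CPM in cdb328, a log2 difference of 0.34 ± 0.10. In Adults it stood at 6483, 5607 and 5594 CPM in wild type and at 7677, 7936 and 7825 CPM in cdb328, a log2 difference of 0.30 ± 0.10. In bias-minimized Adults the values were 1844, 1513 and 2074 CPM against 2117, 2899 and 2377 CPM, a log2 difference of 0.58 ± 0.13. The groups do not overlap in any of these comparisons, and the shift is small beside that of miR-790-5p. On total counts the L4 difference was 0.16, and on the spike-in scale the differences were 0.06 ± 0.19, 0.12 ± 0.19 and 0.07 ± 0.18. Their sign held under every scaling, while their size rests on the choice of scaling. On the spike-in scale each was smaller than its SE, so no direction is read from it there.

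The star arm of mir-790 lay low as well. miR-790-3p* had 20, 27 and 24 reads in wild-type L4 worms and 10, 6 and 4 in wild-type Adults, and 0 reads in all 6 NEBNext libraries of cdb328. Taking 3 reads over the group as the limit that a count of 0 allows, it was at least 21.6-fold lower in L4 worms and at least 5.48-fold lower in Adults. The star arm made up 3.97% ± 1.02 (SD, n = 3) of mir-790 reads in wild-type L4 worms and 4.77% ± 1.83 in wild-type Adults. In cdb328 its 0 of 32 reads at L4 and 0 of 23 in Adults allow shares of up to 9.38% and 13.0%, so a change in the balance of the arms was not detectable at this depth. These limits cover counting error only.

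miR-791-3p and miR-791-5p* were too rare for a firm statement on cdb328. miR-791-3p had 11, 7 and 7 reads in wild-type L4 worms and 4, 4 and 5 in cdb328, a log2 difference of -0.62 ± 0.65. In Adults its log2 difference was -0.29 ± 1.04, and miR-791-5p* differed by 0.02 ± 0.46 in L4 worms and 0.06 ± 0.69 in Adults. miR-228-3p* differed by -0.32 ± 0.24 and 0.01 ± 0.31. As a count, 3 of the 6 arms passed the threshold at L4, where 57.2% of the 215 arms tested did, and 3 of 6 did in NEBNext Adults against 49.3% of 215. In bias-minimized Adults both tested arms passed against 49.2% of 191. Nothing is read from these counts, because the arms were selected on this comparison.

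The mir-80 series holds 6 more comparisons of the same kind. In its wild type miR-790-5p had 125, 159 and 42 reads (92.2, 126 and 124 CPM), and with drsh-1(cdb263 cdb328) it had 2, 0 and 2 reads, a log2 difference of -6.27 ± 0.94. Beside mir-80(cdb493) the reads were 76, 216 and 67 with intact and 2 and 2 with mutant drsh-1 (-5.03 ± 1.06), and beside mir-80(cdb496) they were 94, 136 and 19 against 1, 3 and 0 (-5.45 ± 0.93). Every mutant library of these groups lay below every intact one in CPM. Beside mir-80(cdb494) the reads were 70 and 9 against 0, 6 and 0, a log2 difference of -4.11 ± 0.93, and here 1 library of the intact group held only 155736 miRNA reads. Beside mir-80(cdb495) 118 and 158 reads stood against 1, 0 and 0, and the ratio of the pooled CPM was 354 with a 95% counting interval of 63.1 to 14045 (exact, Clopper-Pearson). Beside mir-80(cdb530) the intact group was itself low, with 4, 19 and 16 reads, against 3 and 1 with mutant drsh-1, a log2 difference of -2.20 ± 1.05.

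**Figure D2:**
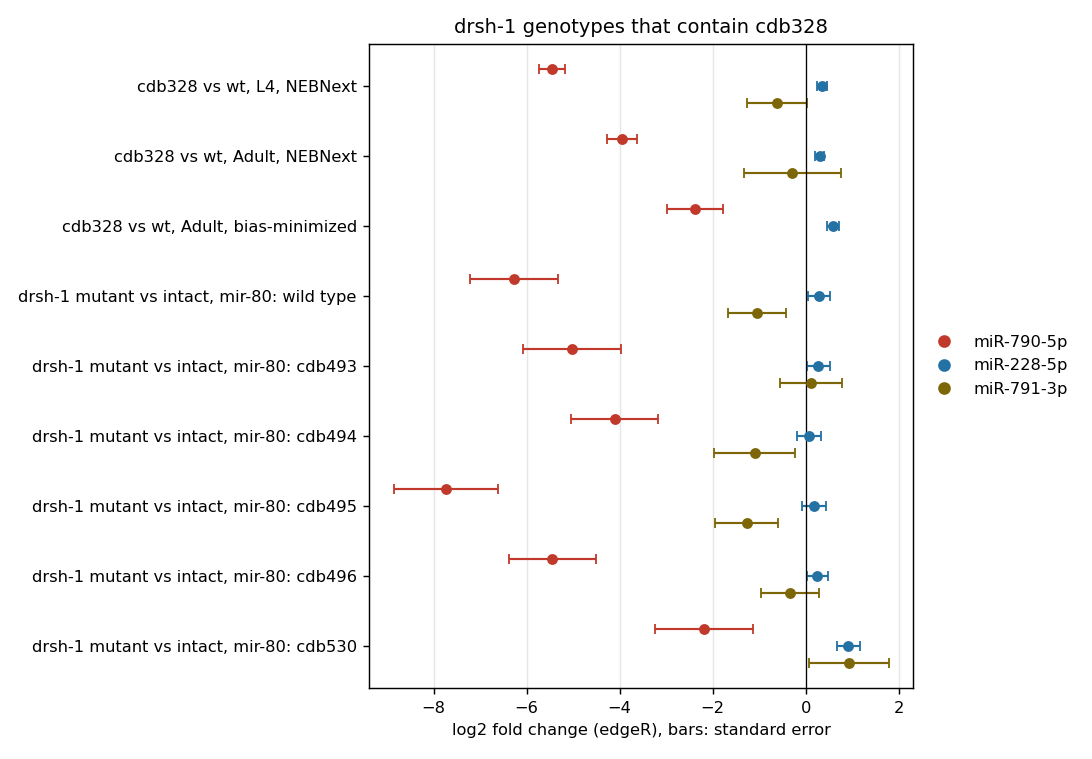
Log2 fold change with its standard error of the 3 main arms in the 9 comparisons of a genotype with cdb328 against its control, with miR-791-3p not tested in bias-minimized Adults. miR-790-5p lies at -2.20 or lower throughout and miR-228-5p between 0.07 and 0.92; the value of miR-790-5p beside mir-80(cdb495) rests on 1 read in the mutant.

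miR-228-5p gave log2 differences of 0.07 to 0.28 beside wild-type mir-80, cdb493, cdb494, cdb495 and cdb496, with SE of 0.23 to 0.25. Beside mir-80(cdb530) it stood at 1322, 3211 and 2728 CPM with intact drsh-1 and at 4982 and 3584 CPM with drsh-1(cdb328), a log2 difference of 0.92 ± 0.25. miR-791-3p gave differences of -1.27 ± 0.67 (cdb495) to 0.92 ± 0.86 (cdb530), so its sign was not the same in all 6 comparisons. miR-228-3p* was at 0 in 19 of the 32 libraries, among them all 3 of wild type, and no fold is given for it. Of the 4 arms tested, 1 passed the threshold in each comparison. It was miR-790-5p beside wild-type mir-80 (20.8% of 207 arms called), cdb493 (18.4%), cdb494 (19.8%), cdb495 (24.2%) and cdb496 (19.3%), and miR-228-5p beside cdb530 (30.0%). These comparisons also belong to those the arms were chosen by, so these counts too are only stated.

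Because both arms were counted in the same library, the reads of miR-790-5p per 100 reads of miR-228-5p need no scaling between libraries. In wild-type L4 worms the ratio was 2.03, 2.02 and 1.66, and in cdb328 it was 0.0385, 0.0197 and 0.0424. In the wild type of the mir-80 series, of unlabelled stage, it was 2.60, 2.81 and 2.82, and with drsh-1(cdb263 cdb328) 0.0364, 0 and 0.0551. In bias-minimized Adults it was 0.836, 0.830 and 0.972 in wild type and 0.149, 0.138 and 0 in cdb328. Wild-type Adults gave similar ratios with both protocols, 0.938 ± 0.268 (SD, n = 3) with NEBNext and 0.879 ± 0.0802 with the bias-minimized adaptors, although the mean level of miR-790-5p was 55.2 CPM in the former and 16.0 CPM in the latter and that of miR-228-5p 5895 and 1810 CPM. The tables were normalized apart, and no test was made across them.

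**Figure D3:**
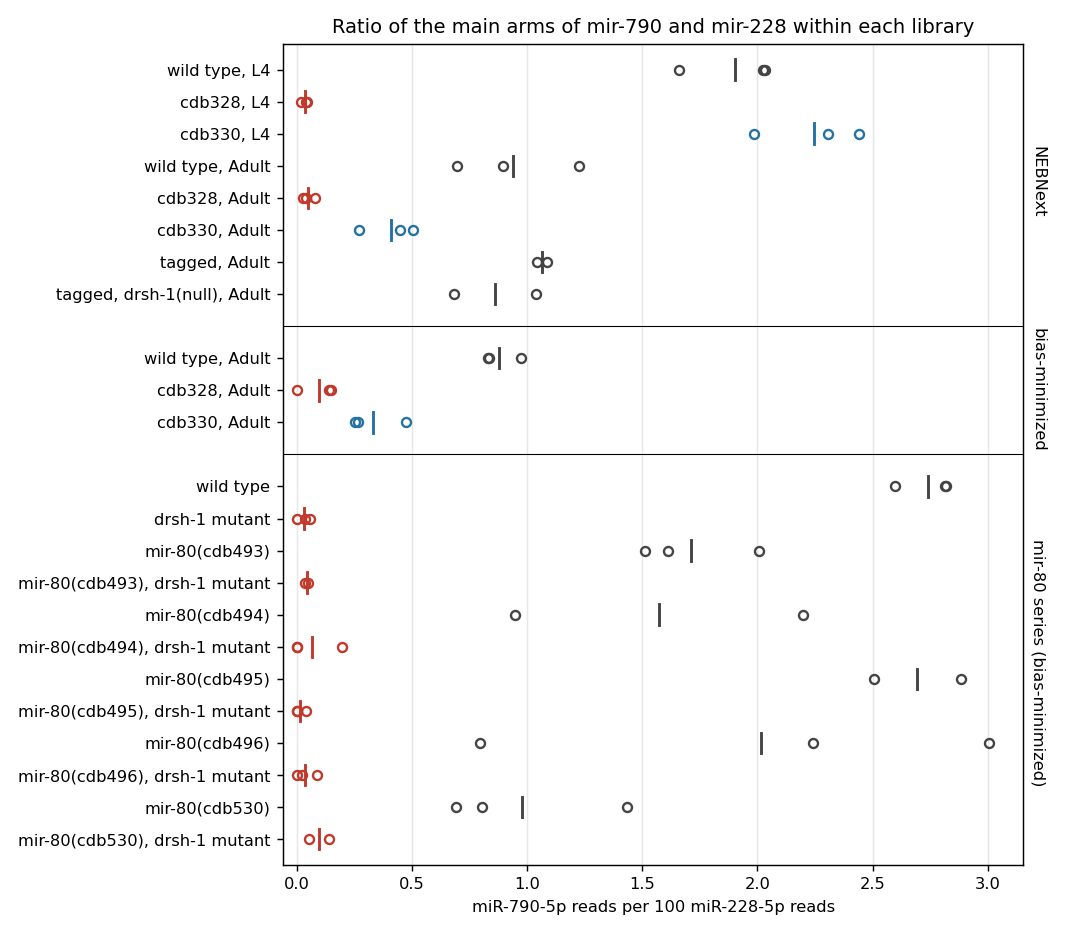
Reads of miR-790-5p per 100 reads of miR-228-5p in each library, with the group mean as a bar and colours as in the plot of levels. Every library of a genotype with cdb328 is at or below 0.198, and the NEBNext wild-type libraries lie between 1.66 and 2.03 at L4 and between 0.694 and 1.22 in Adults.

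Main arms of mir-228 and mir-790 were lower in Adults than in L4 worms. From L4 to Adult in wild type, miR-790-5p fell 2.96-fold (log2 fold change -1.56 ± 0.20, n = 3 per group, edgeR adjusted p = 7.15e-07). Its libraries stood at 204 to 257 CPM in L4 worms and at 38.9 to 68.5 CPM in Adults, with no overlap. miR-228-5p fell 1.44-fold, by 0.53 ± 0.10 on the log2 scale (adjusted p = 1.49e-04). Its Adult libraries, at 5594 to 6483 CPM, all lay below those of L4 worms, at 12252 to 12656 CPM. The size of both falls rests on the scaling, since CPM use total counts and the fold changes use TMM. On total counts miR-228-5p gave -1.07 and miR-790-5p -2.10, and on spike-ins -1.27 and -2.35, while the median arm shifted by -0.53 and -0.77. The star arms fell too, miR-228-3p* with -1.17 ± 0.27 (adjusted p = 6.25e-04) and miR-790-3p* with -1.27 ± 0.39 (adjusted p = 0.00801). For mir-791 the differences were -1.26 ± 0.75 for the 3p arm (adjusted p = 0.142) and -1.002 ± 0.55 for the 5p arm (adjusted p = 0.110), neither called. miR-791-3p passed the threshold on total counts (-1.78, adjusted p = 0.0325) and on the spike-in scale (-2.00, adjusted p = 0.00471). In all, 4 of 6 arms were called lower, in a comparison where 38.1% of 215 arms were. The miR-35 to miR-42 arms, abundant in embryos, took 5.86% to 7.90% of miRNA reads in wild-type L4 worms and 16.4% to 18.9% in Adults, and all 16 of their arms were called higher; their part in the fall of the mir-228, mir-790 and mir-791 arms was not tested.

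In cdb328 worms the stage difference of miR-228-5p was -0.58 ± 0.10 (adjusted p = 8.43e-05), or -0.83 on total counts and -1.21 on the spike-in scale, while miR-790-5p, already near its lowest level in both stages, gave -0.06 ± 0.48 (adjusted p = 0.915). The interval of 2 SE around the latter runs from -1.02 to 0.90. miR-228-3p* was called with -0.84 ± 0.28 (adjusted p = 0.0156), so 2 of 6 arms were called lower, against 31.2% of 215 arms. In cdb330 worms all 6 arms were called lower in Adults, against 36.7% of 215 arms. miR-790-5p fell 9.65-fold there (log2 fold change -3.27 ± 0.22, adjusted p = 6.99e-12), with 315, 436 and 336 CPM at L4 and 29.9, 16.6 and 26.0 CPM in Adults. By log2 fold change it was the fourth lowest of the 215 arms. miR-790-3p* went from 27, 31 and 23 reads to 0, 2 and 2 (-3.47 ± 0.55, adjusted p = 1.65e-05). miR-228-5p fell by 0.80 ± 0.10 (adjusted p = 5.27e-07) and miR-228-3p* fell by 1.90 ± 0.27 (adjusted p = 1.90e-06). Both arms of mir-791 fell, the 3p arm with a log2 fold change of -1.63 ± 0.59 (adjusted p = 0.0165) and the 5p arm with -1.84 ± 0.51 (adjusted p = 0.00257). The call of miR-791-3p was lost without any 1 of 3 libraries, replicate 3 at L4 or replicate 1 or 2 of the Adults, with log2 values of -1.10, -1.20 and -1.36.

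In cdb330 worms miR-790-5p lay below wild type in Adults and above it at L4. In Adults miR-790-5p fell 2.29-fold, with 68, 39 and 63 reads against 156, 101 and 146 in wild type (log2 fold change -1.20 ± 0.23, adjusted p = 0.00140). The groups do not overlap, and the call held under each scaling, filter, test and omitted library tried. At L4 it was 1.42-fold higher, with 844, 1101 and 865 reads against 623, 703 and 447 (log2 fold change 0.51 ± 0.19, adjusted p = 0.0399). The L4 groups do not overlap in CPM either, but the call was lost without wild-type replicate 3 (0.43), without cdb330 replicate 2 or 3 (0.42 and 0.52), and with no filter on low counts (0.43). The difference of the cdb330 effect between Adults and L4 worms, tested in the same fit, was -1.71 ± 0.30 (adjusted p = 1.55e-04). miR-790-5p was the only 1 of the 6 arms called in each of these comparisons, against backgrounds of 31.2% of 215 arms at L4, 7.44% in Adults and 16.3% for the difference between stages.

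The libraries of cdb330 at L4 stood apart in their embryo miRNAs. The miR-35 to miR-42 arms took 1.62% to 2.60% of reads there, below the 5.86% to 7.90% of wild-type L4 worms, and 14 of these 16 arms were called lower, with a median log2 fold change of -1.66. In cdb330 Adults their share, 16.1% to 17.2%, overlapped that of wild-type Adults, with a median log2 fold change of -0.11. The part of this shift in the L4 values of miR-790-5p and in the difference between stages was not tested.

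**Figure D4:**
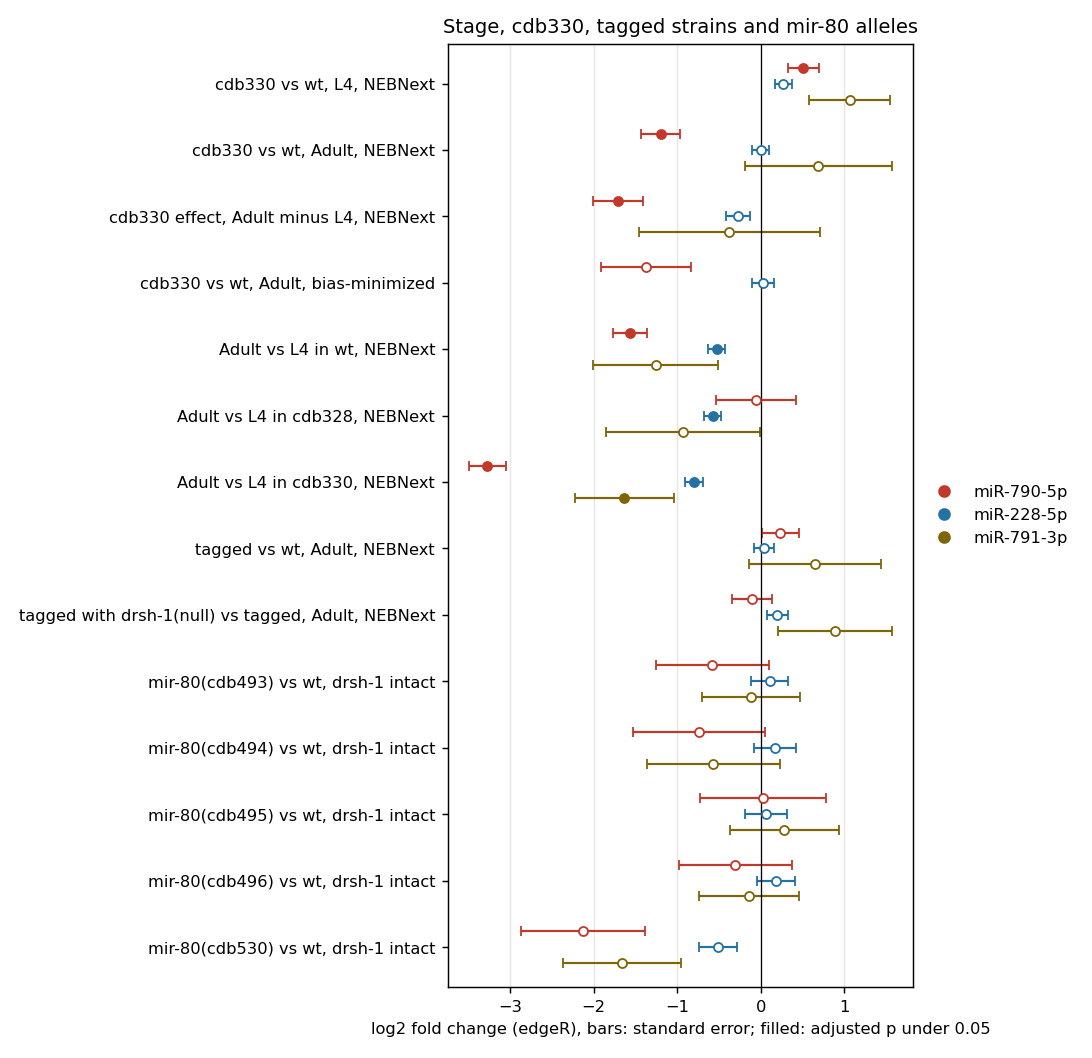
Log2 fold change with its standard error of the 3 main arms in the 14 comparisons outside those with cdb328 against its control; filled circles have an adjusted p under 0.05. Filled red circles of miR-790-5p lie left of 0 for the stage in wild type (-1.56) and cdb330 (-3.27) and for cdb330 in NEBNext Adults (-1.20). Another lies left of 0 for the difference of the cdb330 effect between stages (-1.71), and 1 lies right of 0 for cdb330 at L4 (0.51).

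miR-228-5p, the neighbour, was not called in cdb330 at either stage. It stood at 5934, 6157 and 5799 CPM in cdb330 Adults and at 6483, 5607 and 5594 CPM in wild type, a log2 difference of 0.00 ± 0.10 (adjusted p = 0.995), with an interval of 2 SE from -0.21 to 0.21. At L4 it stood at 15870, 17854 and 14579 CPM, above all wild-type libraries, a difference of 0.27 ± 0.10 (adjusted p = 0.0505). That value passed the threshold with DESeq2's size factors (0.31), on total counts (0.38) and on the spike-in scale (0.91). The difference of its cdb330 effect between stages was -0.27 ± 0.15 (edgeR adjusted p = 0.219). That difference passed on total counts (-0.36, adjusted p = 0.0406) and on the spike-in scale (-0.88, adjusted p = 0.00774). It also passed without wild-type Adult replicate 3 (-0.55, adjusted p = 0.0257). miR-790-3p* had 0, 2 and 2 reads in cdb330 Adults against 10, 6 and 4 (-2.18 ± 0.69, adjusted p = 0.0591), which did not pass. The arms of mir-791 were not called in cdb330 at either stage; miR-791-3p at L4 had 8, 20 and 31 reads against 11, 7 and 7 (1.06 ± 0.48, adjusted p = 0.103). That difference passed on the spike-in scale (1.72, adjusted p = 0.000554) and without cdb330 replicate 1 (1.44, adjusted p = 0.0206).

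The bias-minimized Adults, which may be the same worms, gave the same direction with fewer reads. miR-790-5p had 21, 12 and 5 reads in cdb330 (8.97, 4.64 and 4.96 CPM) and 25, 14 and 21 in wild type (15.4, 12.6 and 20.2 CPM). The ranges do not overlap in CPM, and the log2 difference was -1.37 ± 0.54, but the adjusted p of 0.224 did not pass. With the replicate number as a block it was -1.37 ± 0.46 (adjusted p = 0.163), again not called. Neither tested arm was called there, against 0.524% of 191 arms, a single arm; 37 arms had an unadjusted p under 0.05 and DESeq2 called 26. miR-228-5p differed by 0.02 ± 0.13 (adjusted p = 0.972). Within libraries, miR-790-5p reads per 100 of miR-228-5p were 0.474, 0.253 and 0.264 in cdb330 and 0.836, 0.830 and 0.972 in wild type. In NEBNext Adults they were 0.504, 0.269 and 0.448 against 0.896, 0.694 and 1.22. An exact permutation test on unpaired libraries, two-sided, gave p = 0.1 for each of these differences, the smallest that 3 against 3 libraries allow, and an adjusted value of 0.12 over the 6 ratio comparisons made. At L4 the ratio was 1.98, 2.44 and 2.31 in cdb330 against 2.03, 2.02 and 1.66 in wild type. Those ranges overlap, and the exact permutation test gave p = 0.3 (adjusted 0.3).

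The tagged strains gave levels near wild type. miR-790-5p stood at 65.1 and 62.2 CPM in tagged Adults and at 44.8 and 67.9 CPM in tagged drsh-1(null) Adults, within or beside the 38.9 to 68.5 CPM of wild-type Adults. The log2 differences were 0.23 ± 0.22 from wild type (edgeR adjusted p = 0.445) and -0.10 ± 0.24 for tagged drsh-1(null) against tagged worms (adjusted p = 0.888). Their intervals of 2 SE ran from -0.20 to 0.67 and from -0.58 to 0.37. miR-228-5p differed by 0.04 ± 0.12 (adjusted p = 0.830) and 0.20 ± 0.13 (adjusted p = 0.460). The star arms of mir-228 and mir-790 were called in tagged worms against wild type, in opposite directions. miR-791-5p* was not called (-1.07 ± 0.74, edgeR adjusted p = 0.302). miR-228-3p* rose by 0.81 ± 0.29 (edgeR adjusted p = 0.0358), but its groups overlap, at 26.8 and 24.8 CPM against 8.94 to 24.9 CPM. miR-790-3p*, with 4 and 5 reads against 10, 6 and 4, fell by 1.63 ± 0.57 (adjusted p = 0.0323). These 2 of 6 arms compare with 32.1% of 215 arms. None of the 6 was called for tagged drsh-1(null) against tagged worms, where 4.19% of 215 arms were. There 41 arms had an unadjusted p under 0.05 and DESeq2 called 9. On the spike-in scale all arms of the tagged worms shifted by 2.05 in the median, which would make miR-228-5p 2.08 and miR-790-5p 2.30 higher than in wild type. In tagged drsh-1(null) against tagged worms miR-790-5p passed as lower on that scale (-0.75 ± 0.30, edgeR adjusted p = 0.0425). There miR-228-5p gave -0.51, and 67 arms were called, all of them lower.

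Of the mir-80 alleles with intact drsh-1, cdb530 had the lowest mean level of each of the 3 main arms. miR-790-5p stood at 18.9, 25.9 and 18.9 CPM (4, 19 and 16 reads) in mir-80(cdb530) and at 92.2, 126 and 124 CPM in wild type of the series. No library of either group entered the range of the other, and the log2 difference was -2.13 ± 0.74 with an adjusted p of 0.0536, just above the threshold. It passed with the replicate number as a block (adjusted p = 0.0396) and under 5 other alternatives. miR-228-5p stood at 1322, 3211 and 2728 CPM against 3549, 4488 and 4412 CPM, a difference of -0.51 ± 0.23 (adjusted p = 0.122), and miR-791-3p differed by -1.66 ± 0.71 (adjusted p = 0.111). None of the 4 tested arms was called, against 12.6% of 207 arms (68 with an unadjusted p under 0.05, 33 by DESeq2). Relative to its neighbour miR-790-5p was low as well, at 1.43, 0.806 and 0.692 reads per 100 of miR-228-5p against 2.60, 2.81 and 2.82 (exact permutation p = 0.1, adjusted 0.12). The lowest of these libraries in miR-228-5p held 211102 miRNA reads. miR-35 to miR-42 took 10.8% to 13.5% of reads in mir-80(cdb530) and 9.29% to 14.9% in wild type, which overlap. Of the neuronal miRNAs named below, lsy-6-3p gave -1.86 ± 0.58 (edgeR adjusted p = 0.0379) and miR-124-3p -0.88 ± 0.30 (0.0524). miR-124-5p* gave 4.71 ± 2.66 (0.248). Replicate 3 of mir-80(cdb496) was low too, with 39.5 CPM of miR-790-5p and a ratio of 0.796. The ratio in bias-minimized wild-type Adults was 0.830 to 0.972. Stage is not labelled for the mir-80 series, and its part in these differences was not tested.

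With the other alleles miR-790-5p differed from wild type by -0.58 ± 0.68 (cdb493, adjusted p = 1.00), -0.73 ± 0.79 (cdb494, 0.742), 0.03 ± 0.75 (cdb495, 0.983) and -0.30 ± 0.68 (cdb496, 1.00). No tested arm of the trio was called with any of them, where 0.966%, 0.966%, 5.80% and 0.966% of 207 arms were; unadjusted p under 0.05 had 17, 32, 40 and 27 arms, and DESeq2 called 6, 11, 13 and 5. The spread within these groups is wide, as mir-80(cdb496) shows with 120, 163 and 39.5 CPM of miR-790-5p, and the intervals of 2 SE reach down to -2.32 (cdb494) and up to 1.53 (cdb495).

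The hairpins also differed in how their reads divided between arms. Over the NEBNext libraries the star arm made up 0.341% of mir-228 reads and 3.08% of mir-790 reads, and in no library did it outnumber the main arm. For mir-791, 151 reads fell on the 3p arm and 179 on the 5p arm named as the star, so that the star arm held 54.2% and outnumbered the other in 11 of 22 libraries. With the bias-minimized adaptors the share of miR-791-5p* was 45.7% in Adults (35 reads in all) and 17.6% in the mir-80 series, where it outnumbered the 3p arm in 2 of 32 libraries. The main arm of mir-791 as named in the tables was thus the commoner in the mir-80 series and not in NEBNext libraries. The adaptors, the worms and the unknown stage of the series cannot be told apart in this difference.

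**Figure D5:**
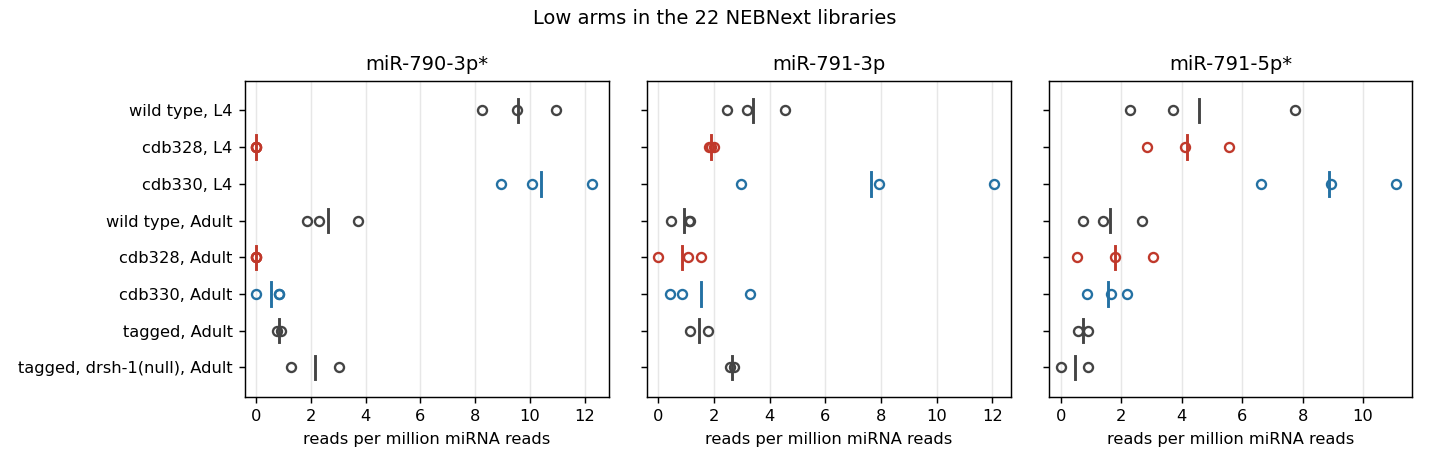
CPM of the 3 arms miR-790-3p*, miR-791-3p and miR-791-5p* in the NEBNext libraries; circles are libraries, bars are group means, and colours are as in the plot of levels. miR-790-3p* is at 0 in all cdb328 libraries, and both arms of mir-791 stay below 12.1 CPM.

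Over the 22 NEBNext libraries the Pearson correlation of log2(CPM + 1) was 0.26 between miR-228-5p and miR-790-5p, 0.62 between miR-228-5p and miR-791-3p and 0.63 between miR-790-5p and miR-791-3p, and over the 41 bias-minimized libraries it was 0.02, 0.78 and 0.33. These sets include the cdb328 libraries, whose low miR-790-5p chose the trio. Without the genotypes that contain cdb328, a choice made after seeing the data, the values were 0.93, 0.77 and 0.73 over 16 NEBNext libraries and 0.85, 0.93 and 0.87 over 22 bias-minimized ones. The arms of other hairpins most like miR-228-5p were miR-76-3p, miR-59-3p and miR-137-3p (r of 0.96, 0.95 and 0.95 over the NEBNext libraries; 0.83 and 0.72 for the first and second over the bias-minimized ones). Those most like miR-790-5p were miR-84-3p*, miR-84-5p and miR-241-5p (0.96, 0.95 and 0.93; 0.87, 0.78 and 0.86), of which mir-84 and mir-241 belong to the let-7 family that times larval development. Those most like miR-791-3p were miR-799-3p, miR-242-5p and miR-789-2-5p (0.77, 0.75 and 0.75, then 0.77, 0.81 and -0.19). The lists were ranked with the cdb328 libraries included, whose low miR-790-5p chose the trio. The ranking was not repeated without them, so nothing on development is read from the list of miR-790-5p. All these correlations are descriptions over libraries that share genotypes and stages. The bias-minimized ones also pool the Adults with the mir-80 series, whose levels differ. In wild type the pooled CPM was 1810 in the Adults and 4048 in the mir-80 series for miR-228-5p. It was 15.9 and 110 for miR-790-5p, and 1.85 and 17.6 for miR-791-3p. The part of this gap between sets in the correlations was not tested.

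Other miRNAs known from neurons were set beside mir-791. lsy-6, which sets left-right asymmetry of taste neurons, and the neuronal mir-124 had 2 of 4 arms tested in the NEBNext fits. In cdb330 worms lsy-6-3p rose by 0.76 ± 0.25 at L4 (adjusted p = 0.0246), and miR-124-3p differed by 0.40 ± 0.29 (adjusted p = 0.345). In Adults lsy-6-3p differed by -0.67 ± 0.41 (edgeR adjusted p = 0.382) and miR-124-3p by -0.09 ± 0.43 (adjusted p = 0.936). The difference of the cdb330 effect between stages was -1.43 ± 0.48 for lsy-6-3p (edgeR adjusted p = 0.0443). It was -0.49 ± 0.52 for miR-124-3p (adjusted p = 0.548) and -0.37 ± 1.08 for miR-791-3p (adjusted p = 0.817), neither called. From L4 to Adult in wild type lsy-6-3p fell by 0.78 ± 0.32 (adjusted p = 0.0359) and miR-124-3p differed by -0.77 ± 0.36 (adjusted p = 0.0646), beside -1.26 ± 0.75 for miR-791-3p. In cdb330 both fell from L4 to Adult, with -2.21 ± 0.33 (adjusted p = 3.44e-06) and -1.26 ± 0.35 (adjusted p = 0.00302), beside -1.63 ± 0.59 for miR-791-3p.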

How the data were processed

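Total RNA of whole worms was extracted with Trizol and small RNA libraries were made with the NEBNext kit or with degenerate adaptors, per the labels. The deposited values are raw reads per miRNA arm, per the file headers of the NEBNext table, and were taken to be so in the other table. Because 292 values (4.81%) and 166 values (1.47%) lay midway between whole numbers, the tables as deposited were handled as estimated counts and rounded before tests. Per the submitters' processing notes, the authors used HTSeq. No source used here gives its version, the aligner, the build or any read filter.

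Groups came from the labels. edgeR 4.0.16 (R 4.3.3, limma 3.58.1) was run with TMM on miRNA counts, filterByExpr (minimum count 10, minimum total 15), glmQLFTest and Benjamini-Hochberg adjustment over all arms tested, in 4 fits: 18 NEBNext libraries, all 22 (tagged strains), 9 bias-minimized Adults, and 32 of the mir-80 series. The biological coefficient of variation was 0.123, 0.123, 0.598 and 0.574. The procedure was also run on simulated counts with known changes, and its rates of right and false calls are not given here. Members, lists and comparisons were chosen with earlier results of these data known. Named beside all arms of the 3 hairpins are lsy-6, mir-124, mir-35 to mir-42, and the 3 arms of at least 10 CPM most correlated with each main arm.

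Alternatives were DESeq2's size factors, total counts, spike-in scaling, no filter, DESeq2 1.42.0, only the groups compared, the replicate number as a block, and each library left out; the correlations without cdb328 genotypes were added after seeing the data. Same-numbered libraries deviated together in the bias-minimized Adults (correlations 0.538 to 0.615 for cdb328 and 0.103 to 0.809 for cdb330) and in mir-80(cdb493) against wild type (0.350 to 0.791), so the numbers were taken as pairs there from the data; elsewhere they were not. The fits reported are without the block.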

Additional observations from a re-analysis of the deposited data

Results flagged for a closer look

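The cdb330 effect on miR-790-5p differed between stages. It was -1.20 ± 0.23 on the log2 scale in Adults and 0.51 ± 0.19 at L4, and the difference of -1.71 ± 0.30 was tested in the same fit (edgeR adjusted p = 1.55e-04 over 215 arms, n = 3 per group). The 3 cdb330 Adult libraries all lay below the 3 wild-type Adults, and the 3 cdb330 L4 libraries all lay above the 3 of wild type. The difference ranged from -1.93 to -1.51 when single libraries were left out. The share of miR-35 to miR-42 reads was 1.62% to 2.60% in cdb330 at L4 against 5.86% to 7.90% in wild type, and its part in the difference was not tested. Measured as reads of miR-790-5p per 100 of miR-228-5p, cdb330 and wild type overlapped at L4 (means of 2.24 and 1.90, exact permutation p = 0.3, adjusted 0.3 over 6 ratio comparisons) and did not overlap in Adults (0.407 and 0.938, exact p = 0.1, adjusted 0.12).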

How the results depend on the processing

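Of the main-arm results, no called value changed sign under any alternative; 52 uncalled values did. On total counts miR-228-5p gave 0.16 for cdb328 at L4, 0.82 for drsh-1 beside cdb530, 0.38 for cdb330 at L4 and -0.36 for the difference between stages. Scaling on spike-ins, which shifted the median arm by -1.35 (stage in cdb330) to 2.05 (tagged worms), gave it 0.059, 0.12 and 0.069 for cdb328 at L4, in NEBNext and in bias-minimized Adults, 0.24 for drsh-1 beside cdb530, 0.91 for cdb330 at L4, -0.88 for the difference between stages and 2.08 for tagged worms. With no filter its cdb328 values were 0.18 and 0.26. With only the groups compared it gave 0.52 for cdb328 in bias-minimized Adults, 0.82 for drsh-1 beside cdb530 and 0.26 for cdb330 at L4, the last 0.31 with DESeq2's size factors and with DESeq2. miR-790-5p gave 0.43 for cdb330 at L4 with no filter, 2.30 (tagged) and -0.75 (drsh-1(null)) on the spike-in scale, and -3.99 for drsh-1 beside cdb494 with only the groups compared. Its values for tagged and drsh-1(null) worms on the spike-in scale passed the threshold. For mir-80(cdb530) it passed with -2.22 (DESeq2's size factors and DESeq2), -2.40 (total counts), -2.57 (spike-in scale), -2.16 (only the groups compared) and -2.15 (replicate block). The block changed no other call of a main arm. miR-791-3p passed for the stage in wild type with -1.78 (total counts) and -2.00 (spike-in scale), for cdb330 at L4 with 1.72 (spike-in scale) and 1.44 (without cdb330 replicate 1), for tagged worms with 2.64 (spike-in scale) and for mir-80(cdb530) with -2.85 (without its replicate 2). Values for cdb328 or mutant drsh-1 are descriptions, since these comparisons chose the arms.

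Leaving out libraries, miR-228-5p ranged from 0.18 to 0.38 (cdb328, L4; not past the threshold without wild-type replicate 1 or 2), 0.23 to 0.46 (cdb328, NEBNext Adults; not past it without wild-type replicate 2 or 3 or cdb328 replicate 2), 0.62 to 1.14 (drsh-1 beside cdb530; not past it without the first mutant library), 0.25 to 0.36 (cdb330, L4), -0.55 to -0.11 (difference between stages) and -0.74 to -0.21 (mir-80(cdb530)). miR-790-5p for cdb330 at L4 ranged from 0.42 to 0.64. Where calls differ, the cause was not tested.

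Counts of called arms moved by over 1.5 times as follows: 123 to 80 (cdb328, L4), 43 to 24 (drsh-1, wild-type mir-80), 67 to 143 (cdb330, L4), 35 to 69 (difference between stages), 102 to 157 (stage in cdb328), 69 to 202 (tagged) and 9 to 67 (drsh-1(null)) on the spike-in scale; 41 to 4 (cdb494) and 50 to 92 (cdb495) for drsh-1, 9 to 0 (drsh-1(null)), 12 to 1 (mir-80(cdb495)) and 26 to 14 (mir-80(cdb530)) with only the groups compared; 1 to 26 (cdb330, bias-minimized), 2 to 6 (mir-80(cdb493)) and 2 to 5 (mir-80(cdb496)) with DESeq2; and, without single libraries, 38 to 24 (drsh-1, cdb493), 62 to 34 (drsh-1, cdb530), 16 to 10 (cdb330, NEBNext Adults), 69 to 44 (tagged) and 2 to 12 (mir-80(cdb494)). Of the arms most alike, the top of each list stayed first with a pseudocount of 10 CPM. Depth limits the arms of mir-791, at 0 to 36 reads a library, and miR-790-5p in genotypes with cdb328, at 0 to 15.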

Other observations

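The share of mir-228 reads on its star arm was uneven in the mir-80 series. miR-228-3p* had 0 of 11955 mir-228 reads in wild type, which allows a share of up to 0.0251%, and 0 of 19910 in mir-80(cdb493), which allows up to 0.0151%. In mir-80(cdb494) it had 23 of 4159 reads, a share of 0.553%, and in mir-80(cdb530) 17 of 4966, a share of 0.342%. Both mir-80(cdb494) libraries held such reads, 18 and 5. Libraries of the same genotype differed elsewhere, with 4, 13 and 0 reads in mir-80(cdb530) and 0, 1 and 6 in mir-80(cdb496). With drsh-1(cdb263 cdb328) and wild-type mir-80 they held 0, 0 and 10. The unevenness is therefore not read as a difference between alleles. In wild-type NEBNext worms miR-228-3p* held 0.399% of mir-228 reads at L4 and 0.250% in Adults, and in wild-type bias-minimized Adults 0.350%. The limits cover counting error only, and the comparison was made after the values were seen.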
